A study of Rattus norvegicus with 24 samples.

Results

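The miR-30 family is a set of closely related microRNAs, short RNAs that lower the output of messenger RNAs matching their seed, bases 2 to 8. Its members were chosen by name, as the 8 listed mature arms among the 1098 miRNAs in the table: the 5p arms rno-miR-30a-5p, rno-miR-30b-5p, rno-miR-30c-5p, rno-miR-30d-5p and rno-miR-30e-5p, and the 3p arms rno-miR-30a-3p, rno-miR-30e-3p and rno-miR-30b-3p, written below without the rat prefix rno-. All 8 were found. No measured value enters that choice, but the family was picked on the strength of earlier results from these libraries, so the p-values below describe these libraries and are not independent evidence.

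Small RNA was sequenced from the paraventricular nucleus of the hypothalamus (PVN), which drives the hormonal stress response, and from the central amygdala (CEA), a part of the amygdala that shapes it. The 24 libraries hold 3 per nucleus for each of 4 groups of male Sprague-Dawley rats, 7 weeks old when bought. NC rats had no surgery, HT rats lost about 20% of the left liver lobe by partial hepatectomy under isoflurane, HT+EA rats also had electroacupuncture at the ST 36 and SP 6 points (2/15 Hz, 30 min, 24 h before surgery and right after it), and HT+SEA rats had the same needles with no current. Rats of all groups sat in the restraint for equal times, and the brains were collected 24 h after that last session. The methods name 12 rats. They say that 1 rat gave limited tissue, so that the brain samples share a batch but not an animal. They do not say which samples this covers or tie a library to a rat. Whether PVN and CEA libraries share rats is therefore not known, and p-values measure the spread between libraries, which may be technical in part.

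A mature miR-30 is cut from either side of a hairpin, the 5p or the 3p side. The 5p arms carry the family seed and are the arms usually loaded into the silencing complex. In mammals miR-30a is known to target Becn1, a gene of autophagy, and Bdnf, a neuronal growth factor. The hairpins lie in pairs. In the RefSeq annotation Mir30a and Mir30c2 sit 19670 bases apart on chromosome 9, Mir30e and Mir30c1 sit 2906 bases apart inside the protein-coding gene Nfyc on chromosome 5, and Mir30b and Mir30d overlap the same long noncoding RNA on chromosome 7 with 0 genes between them.

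The RefSeq table (build GRCr8) holds sequences for 4 of the 8 members, and 3 of these are 5p arms with the same seed. miR-384-5p, from the X chromosome, is not named miR-30 but has that seed too, and is shown because its level can be set against the family's. The seed is in capitals and all are written 5′ to 3′.
miR-30a-5p: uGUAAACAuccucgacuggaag
miR-30e-5p: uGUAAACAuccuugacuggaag
miR-30c-5p: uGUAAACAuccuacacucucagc
miR-384-5p: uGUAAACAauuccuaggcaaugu
Counted from the 5′ end, miR-30a-5p and miR-30e-5p differ at 1 of 22 positions (C13U), and miR-30a-5p and miR-384-5p at 10 of 22, all past the seed. The miR-30a-5p sequence lies at chr9:33233946-33233967 on the plus strand. miR-30c-5p is made from both Mir30c1 and Mir30c2, so its counts cannot be divided between them. How reads that match several miRNAs were counted is not given in the sources used here, and the split between miR-30a-5p and miR-30e-5p rests on 1 base.

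The 3p arms have other seeds, and the 3p arms of the miR-30c hairpins tell those hairpins apart.
miR-30a-3p: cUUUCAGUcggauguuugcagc
miR-30c-1-3p: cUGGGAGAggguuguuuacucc
miR-30c-2-3p: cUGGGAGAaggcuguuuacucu
The miR-30c-1-3p and miR-30c-2-3p arms differ at 3 of 22 positions (G9A, U12C, C22U). miR-30b-5p, miR-30d-5p, miR-30e-3p and miR-30b-3p are given by name.

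The 12 PVN libraries held 6584345 to 14828269 counts each, and the 12 CEA libraries 9463321 to 14913564. Levels are CPM, a miRNA's count per 1000000 counts of its library, and 3 counts, taken as the smallest number that shows a miRNA, equal 0.201 to 0.456 CPM, which covers counting error only. The tissue labels were checked against miR-7a-5p and miR-7b, miRNAs rich in hypothalamic neuroendocrine neurons: they summed to 13.5% to 17.0% of the counts in PVN libraries and to 2.48% to 5.43% in CEA libraries. The neuronal miR-124-3p, miR-9a-5p and miR-128-3p summed to between 102643 and 161729 CPM in all 24. Adapter ligation favours some small RNAs over others, and its part in the differences between arms was not tested.

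The miR-30 arms were abundant in both nuclei. Together the 8 arms took 4.34% ± 0.423 (SD, n = 12) of the counts in the PVN and 5.98% ± 0.417 (SD, n = 12) in the CEA. In all 24 libraries the order was miR-30d-5p, miR-30a-5p, miR-30c-5p and then miR-30e-5p. miR-30d-5p ranged from 12825 to 32579 CPM and had a median rank of 8 among all miRNAs, against 17 for miR-30a-5p. miR-30e-3p and miR-30b-5p came next and exchanged places, each ahead in 12 libraries, so their order is not fixed. miR-30a-3p followed at 278 to 496 CPM. miR-30b-3p had 0 to 5 counts per library, at or near the limit of detection, and no fold change is given for it.

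The makeup of the family was alike in both nuclei. miR-30d-5p made up a median of 46.3% of the family's counts in the PVN and 46.2% in the CEA, and miR-30a-5p 26.8% and 29.2%. miR-30c-5p held 14.9% and 14.3%, and miR-30e-5p 7.45% and 7.25%. The 5p to 3p ratio differed widely between hairpins: the median was 37.8 in the PVN and 41.3 in the CEA for miR-30a, 4.68 and 4.96 for miR-30e, and 979 and 1120 for miR-30d, whose 3p arm stayed at 16.3 to 29.7 CPM.

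**Figure D1:**
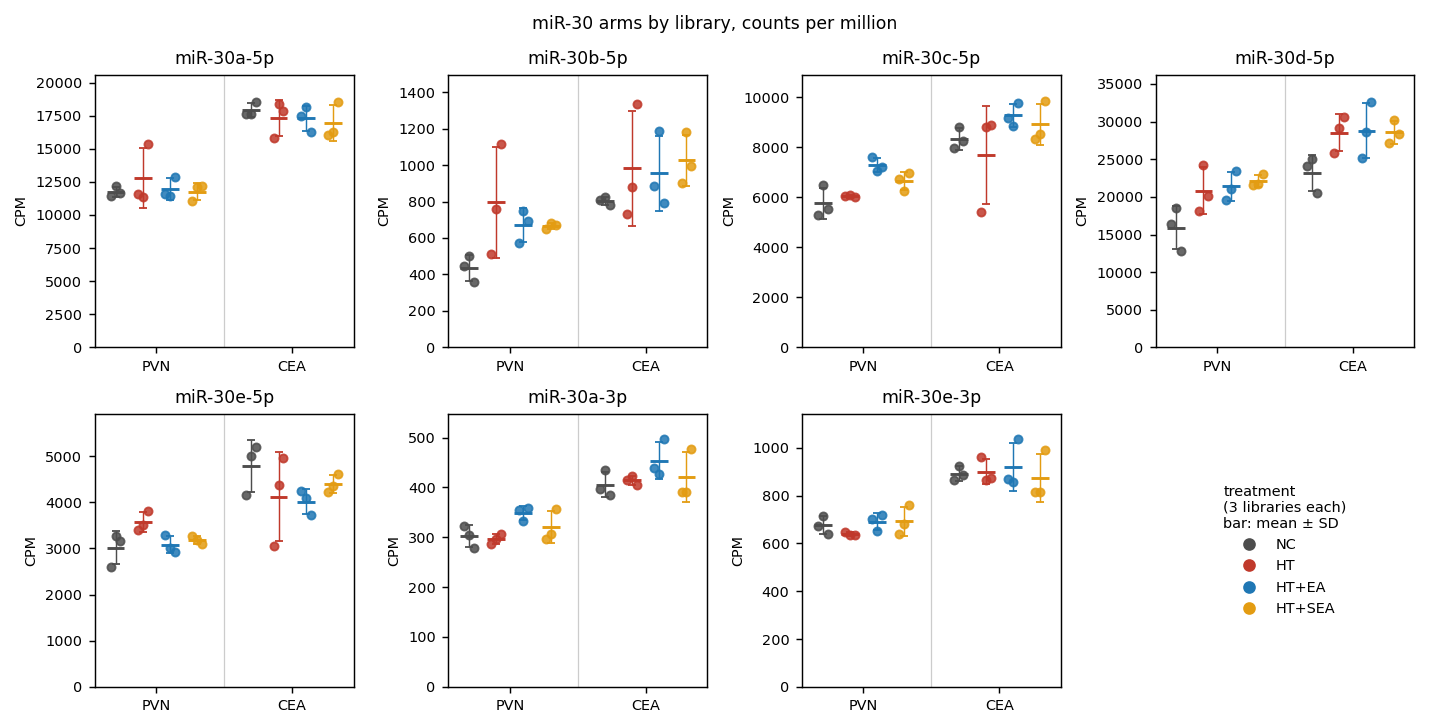
CPM of the 7 well-counted miR-30 arms (y axis, from 0, a scale per panel) in each library of the PVN and CEA, with the group mean and SD over 3 libraries. PVN libraries of miR-30a-5p, miR-30a-3p and miR-30e-3p all lie under the CEA libraries, and miR-30b-5p in the PVN is lowest in NC.

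The first comparison asks whether the nuclei differ in miR-30. All 7 well-counted arms were lower in the PVN than in the CEA, by 24.7% to 31.7% in mean CPM. In edgeR's quasi-likelihood test over the 24 libraries with treatment as a covariate, these 7 of 8 members passed a Benjamini-Hochberg adjusted p of 0.05, against 39.9% of the 1098 miRNAs tested in either direction and 19.8% lower in the PVN. The median log2 fold change was -0.47 over the 7 arms and 0.03 over all miRNAs.

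miR-30a-5p ran from 11060.3 to 15384 CPM in the PVN (median 11650.0) and from 15823 to 18568 in the CEA (median 17627), with no overlap between the 12 libraries of each. Its log2 fold change was -0.57 (SE 0.0515, edgeR adjusted p = 1.56e-11). miR-30b-5p had the most negative estimate, -0.62 (SE 0.0953, adjusted p = 1.16e-06), but its libraries overlapped, with 361 to 1116 CPM (PVN) and 729 to 1336 (CEA). The other 5 arms lay between -0.50 for miR-30d-5p and -0.45 for miR-30c-5p, with SEs from 0.0577 to 0.0648. The intervals (± 1.96 SE) of all 7 arms overlapped.

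The 3p arms, which make up little of the family, differed by a like amount. For miR-30a-3p the PVN libraries spanned 278 to 359 CPM (median 306) and those of the CEA 385 to 496 (median 419). For miR-30e-3p they spanned 634 to 760.1 CPM (median 661) and 814 to 1038 (median 873). Neither overlapped between the nuclei, which with miR-30a-5p makes 3 members, where 4.1% of all miRNAs were lower in the PVN with no overlap. miR-30c-5p, miR-30d-5p and miR-30e-5p overlapped.

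Within each treatment the PVN mean was lower in 28 of 28 pairs of arm and treatment, and the 3 libraries of each nucleus did not overlap in 25. These were 7 of 7 arms in NC, HT+EA and HT+SEA and 4 in HT, where between 11.5% and 17.6% of all miRNAs were lower without overlap. Fitted on 1 treatment alone, 7 arms passed in NC, HT+EA and HT+SEA and 5 in HT, where miR-30b-5p (log2 fold change -0.48, edgeR adjusted p = 0.0651) and miR-30e-5p (-0.35, adjusted p = 0.193) did not. Over all miRNAs, in either direction, 257 of 1015 passed in NC and 203 of 983 in HT. It was 266 of 1012 in HT+EA and 243 of 1015 in HT+SEA.

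Not every arm followed. miR-30c-2-3p, which comes only from Mir30c2 and is not a listed member, was lower in the PVN, with 82.1 to 111 CPM against 111 to 153 and a log2 fold change of -0.53 (SE 0.0736, adjusted p = 2.09e-07). miR-30c-1-3p, from Mir30c1, had 9.11 to 14.1 CPM in the PVN and 9.62 to 14.4 in the CEA and did not pass (log2 fold change -0.08, interval from -0.28 to 0.11). The ratio of miR-30c-2-3p to miR-30c-1-3p was 8.01 ± 1.18 (SD, n = 12) in the PVN and 10.8 ± 1.31 (SD, n = 12) in the CEA. miR-384-5p, with the miR-30 seed, was at 299 to 378 CPM in the PVN and 289 to 356 in the CEA, and its log2 fold change was 0.00 to 2 decimals, with an interval from -0.12 to 0.11. miR-30d-3p was lower in the PVN by 0.31 on the log2 scale (SE 0.0806, adjusted p = 0.00207).

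**Figure D2:**
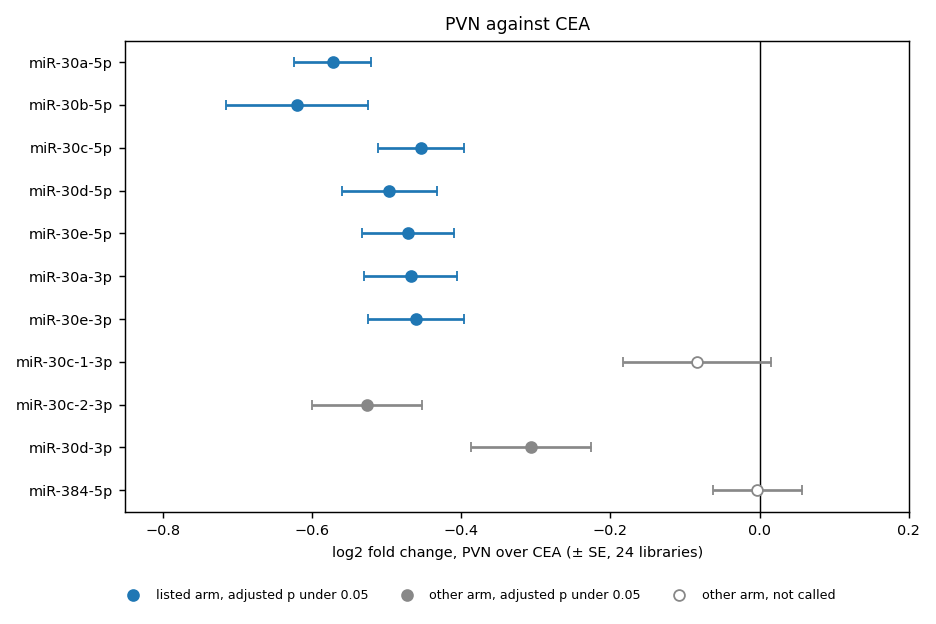
Log2 fold change of the PVN over the CEA (x axis) with its SE for the 7 well-counted listed arms (blue), the other miR-30 arms and miR-384-5p (grey), over 24 libraries. The 7 listed arms lie between -0.62 and -0.45, and miR-30c-1-3p and miR-384-5p (open) lie near 0.

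Several cell type markers moved with the nucleus as well. The 3 neuronal markers summed to 102643 to 116260.0 CPM in the PVN and 137326 to 161729 in the CEA. Of the 3, miR-9a-5p and miR-128-3p did not overlap. miR-124-3p did, at 964 to 1674 CPM in the PVN and 914 to 2021 in the CEA. The oligodendrocyte miR-219a-5p and miR-338-3p summed to 200.5 to 559 CPM and 445 to 1059, and the endothelial miR-126a-3p to 17248 to 21603 and 22919 to 26282. Other markers had a higher median in the PVN but overlapped between the nuclei. These were the red cell miR-451-5p and miR-144-3p (157 against 124 CPM summed), the epithelial miR-200a-3p and miR-200b-3p (17.8 against 6.26) and the liver miR-122-5p (1.20 against 0.93). With the miR-7 arms left out of the totals, a choice made after seeing the data, the family's share was 5.13% ± 0.471 (SD, n = 12) in the PVN and 6.22% ± 0.438 (SD, n = 12) in the CEA. The part of cell makeup in the difference was not tested, and in bulk tissue fewer cells of a type and less RNA per cell cannot be told apart.

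The next comparison asks what hepatectomy did. In the PVN miR-30b-5p and miR-30d-5p rose in HT against NC, and both come from the neighbouring hairpins on chromosome 7. They are 2 of 8 members at an unadjusted p under 0.05, the threshold used for treatments, where 10.9% of 986 miRNAs passed. At an adjusted p under 0.05 it was 1 member, miR-30b-5p, and 3.25% of miRNAs. That adjusted count was 0 with DESeq2, with a filter of at least 10 counts and with edgeR's filterByExpr. It was 2 with a block on replicate number, where 18 of 986 miRNAs passed. Leaving out PVN NC replicate 2, PVN HT replicate 1 or PVN HT replicate 3 also gave 2, where 25 to 38 miRNAs passed.

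miR-30b-5p was at 448, 504 and 361 CPM in the 3 PVN NC libraries and at 513, 760 and 1116 in the 3 PVN HT libraries. The groups did not overlap, but the HT libraries were spread far more widely (SD 303) than the NC libraries (SD 72.2), and replicate 3 was the highest. The log2 fold change was 0.81 (SE 0.155, edgeR adjusted p = 2.86e-05). Without PVN HT replicate 3 it was 0.51 (adjusted p = 0.0103). The ratio of miR-30d-5p to miR-30b-5p was 35.6 to 36.8 in PVN NC and 18.1 to 35.3 in PVN HT. The fit gave miRNAs almost 1 common spread (478 prior degrees of freedom), so p-values of a miRNA this variable are too small. With edgeR's robust estimate the adjusted p was 0.01, with DESeq2 0.088, with edgeR's filterByExpr 0.282 and with edgeR's fit at a filter of at least 10 counts 0.379. The adjusted call therefore depends on the tool and filter, while the unadjusted one held in all 8 alternatives.

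miR-30d-5p, the most abundant arm, was at 16365, 18549 and 12825 CPM in PVN NC and 18119, 24206 and 20158 in PVN HT. One NC library lay above the lowest HT library. The log2 fold change was 0.35 (SE 0.114, edgeR adjusted p = 0.0542). Without PVN HT replicate 2 it was 0.20 and no longer called.

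The 3 HT libraries of miR-30e-5p, at 3405, 3512 and 3820.5 CPM, were all above the NC libraries, at 2607, 3268 and 3170.3 CPM, but the arm did not pass (log2 fold change 0.21, SE 0.129, edgeR adjusted p = 0.638, and 0.090 without PVN NC replicate 1). With miR-30b-5p this makes 2 members whose groups did not overlap, where 12.8% of miRNAs did not. miR-30a-5p and miR-30c-5p had log2 fold changes of 0.08 and 0.04, and the 2 well-counted 3p arms of -0.06 and -0.11, none of them called. Without PVN HT replicate 3 miR-30a-5p turned to -0.064, and without PVN NC replicate 1, or either of PVN HT replicates 1 and 2, miR-30c-5p was at or under 0, down to -0.049. The median was 0.08 over 7 arms and -0.01 over all miRNAs.

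The family took 3.79% ± 0.381 (SD, n = 3) of counts in PVN NC, and 4.5% ± 0.377 in PVN HT, 4.54% ± 0.244 in HT+EA and 4.54% ± 0.147 in HT+SEA (SD, n = 3 each). The PVN NC libraries also differed from PVN HT in other ways. The myeloid miR-223-3p and miR-142-3p summed to 51.2 to 140.2 CPM in NC and 36.3 to 39.8 in HT, and the red cell miR-451-5p and miR-144-3p to 176 to 229.5 and 146 to 156. The muscle miR-1-3p, miR-133a-3p and miR-206-3p summed to 44.0 to 109 and 20.5 to 30.6, and the oligodendrocyte pair, which overlapped, to 200.5 to 357 and 344 to 559. The epithelial miR-200a-3p and miR-200b-3p summed to 15.3 to 63.8 CPM in NC and 7.65 to 13.2 in HT, and miR-449a-5p of ciliated epithelium was at 1.03 to 1.52 and 1.54 to 2.96. The part of these in the rise of miR-30b-5p and miR-30d-5p was not tested.

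In the CEA, miR-30d-5p was at 24044, 25084 and 20521 CPM in NC and 25831, 29101 and 30677 in HT, with no overlap, which 5.62% of miRNAs showed. It rose by a log2 fold change of 0.37 (SE 0.173, edgeR adjusted p = 0.988), and was the 1 member called, where 3.82% of 996 miRNAs were. The call was lost with library totals (0.30) and without CEA NC replicate 3 (0.34). Same-numbered CEA HT and NC libraries deviated together, and a fit that blocked on that number called 2 members at the same unadjusted threshold, miR-30d-5p (log2 fold change 0.37, SE 0.156) and miR-30b-5p (0.31, SE 0.148). That fit called 41 of 996 miRNAs. Without the block miR-30b-5p had a log2 fold change of 0.34 (SE 0.178, edgeR adjusted p = 0.988), which missed the threshold, from 810.1, 822 and 780.4 CPM in NC and 729, 879 and 1336 in HT. As in the PVN, HT replicate 3 was the highest, and without it the value was 0.17.

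A test of the difference in the effect of HT between the nuclei called 0 of 8 members, where 0.188% of 1064 miRNAs passed at an adjusted p under 0.05. At an unadjusted p under 0.05 edgeR and DESeq2 passed 0 members, but edgeR with library totals passed 2, miR-30b-5p and miR-30e-5p, and without CEA HT replicate 3 or PVN HT replicate 1 it passed 1, miR-30b-5p. At that threshold 53 of 1064 miRNAs passed by edgeR, 13 by DESeq2 and 52 by edgeR with library totals. For miR-30b-5p the PVN effect minus the CEA effect was 0.39 (SE 0.252, edgeR adjusted p = 0.983), with an interval from -0.10 to 0.88 that leaves room for no difference and for a large one. Single libraries moved it by over 1.5 times: it was 0.17 without PVN HT replicate 3, 0.68 without CEA HT replicate 3 and 0.69 without PVN HT replicate 1. For miR-30d-5p it was -0.09, with an interval from -0.51 to 0.33.

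The third comparison asks what electroacupuncture changed after hepatectomy. It shares the HT libraries with the comparison above, so an HT library that is high or low enters both. In the PVN miR-30c-5p and miR-30a-3p rose in HT+EA against HT, 2 of 8 members at an unadjusted p under 0.05, where 11.4% of 985 miRNAs passed. Neither passed after adjustment.

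miR-30c-5p was at 6035, 6097 and 5996 CPM in PVN HT and 7617, 7046 and 7232 in PVN HT+EA. The groups did not overlap and the HT libraries lay close together. The log2 fold change was 0.30 (SE 0.0993, edgeR adjusted p = 0.149), and it stayed called without any 1 of the 6 libraries. Same-numbered PVN HT+EA and HT libraries deviated together. With a block on that number the log2 fold change was 0.30 (SE 0.105, edgeR adjusted p = 0.0804). PVN HT+SEA lay between, at 6724, 6248 and 6979 CPM, above every HT library and below every HT+EA library. Such separation was seen for 10.3% of miRNAs against HT and for 11.3% against HT+EA, and miR-30c-5p passed the test in neither comparison.

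miR-30a-3p was at 287, 297 and 306 CPM in PVN HT and 355, 334 and 359 in PVN HT+EA, again with no overlap. The log2 fold change was 0.27 (SE 0.117, edgeR adjusted p = 0.349), but the call was lost in 4 of the 6 fits without 1 library and in 3 of 8 alternatives (library totals, DESeq2's size factors and all 4 groups). With the block on replicate number the value for miR-30a-3p was 0.27 (SE 0.130, edgeR adjusted p = 0.336). Its 5p partner miR-30a-5p was at 11622, 11376 and 15384 CPM in HT and 11569, 11419.6 and 12888 in HT+EA, so the arms of this hairpin were not shown to move together.

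miR-30e-5p pointed the other way, from 3405, 3512 and 3820.5 CPM in PVN HT to 3289, 3019.9 and 2929.9 in HT+EA, below every HT library. It was not called (log2 fold change -0.18, SE 0.102, edgeR adjusted p = 0.517), though it passed in 5 of 8 alternatives. The HT+SEA libraries, at 3275, 3183 and 3086 CPM, were below every HT library too, and that comparison did not pass either. Its 3p partner miR-30e-3p had 648, 634 and 637 CPM in HT and 704, 651 and 719 in HT+EA, again all higher, and was not called (log2 fold change 0.14, SE 0.114). In all, 4 members did not overlap, 3 higher and 1 lower, where 15.7% of miRNAs did not overlap. The median over the 7 arms was 0.07, against 0.02 over all miRNAs. miR-30b-5p, the arm that rose in HT, was at 570.1, 748 and 695 CPM in PVN HT+EA and 650.3, 682 and 672 in HT+SEA, inside the range of the HT libraries and above every NC library, with a log2 fold change of -0.19 (SE 0.157) for HT+EA against HT that was not called. Its direction rests on PVN HT replicate 3: without that library it was 0.073, and without PVN HT replicate 1 it was -0.40 and called. The oligodendrocyte pair summed to 344 to 559 CPM in PVN HT and 269 to 318 in HT+EA, and its part in these values was not tested.

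The ratio of miR-30c-5p to miR-30e-5p, looked at after these values were seen and so given with no test, was 1.69 ± 0.108 in PVN HT, 2.37 ± 0.0834 in HT+EA, 2.09 ± 0.153 in HT+SEA and 1.92 ± 0.158 in NC (SD, n = 3 each). In the CEA it was 1.86 ± 0.133 in HT, 2.32 ± 0.267 in HT+EA, 2.03 ± 0.0995 in HT+SEA and 1.75 ± 0.164 in NC. In both nuclei the HT+EA libraries lay above every HT library. For the PVN this follows from miR-30c-5p lying higher and miR-30e-5p lower, as given above. The PVN HT+SEA libraries, at 1.96 to 2.26, lay above every PVN HT library too, and those of the CEA overlapped HT. How often other pairs of arms separate was not computed.

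**Figure D3:**
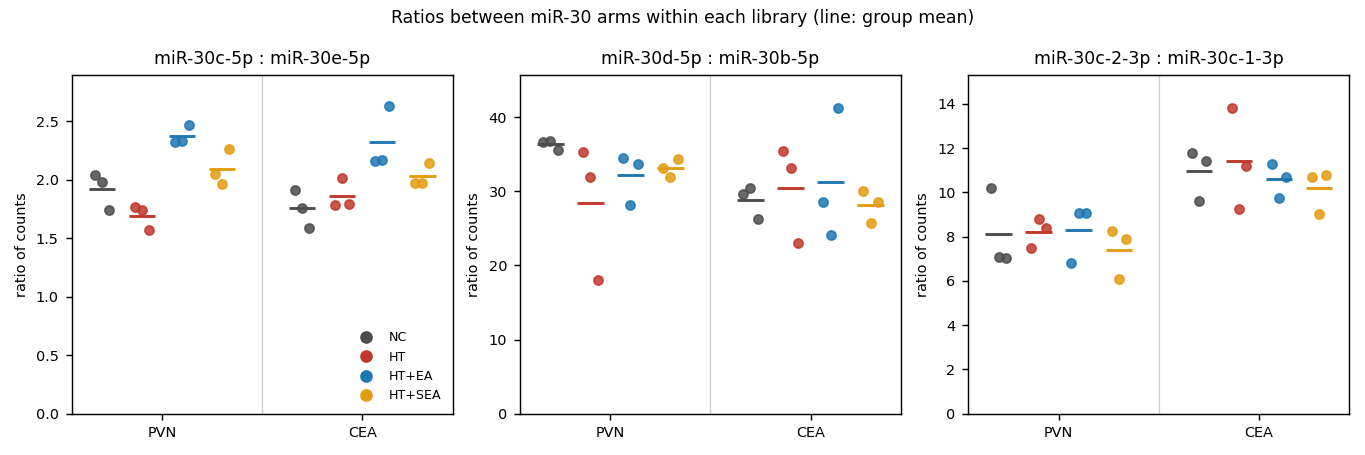
Ratio of counts (y axis, from 0) between pairs of miR-30 arms in each library of the PVN and CEA, with the group mean over 3 libraries. The miR-30c-5p to miR-30e-5p ratio was highest in HT+EA in both nuclei (means 2.37 and 2.32), and the ratio of miR-30c-2-3p to miR-30c-1-3p was higher in the CEA (10.8 against 8.01).

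In the CEA, HT+EA against HT called 0 of 8 members by edgeR and by DESeq2 at an unadjusted p under 0.05, where 5.28% of 1004 miRNAs passed. miR-30c-5p was at 9168, 8867 and 9783 CPM in HT+EA and 5431, 8798 and 8873 in HT, where replicate 1 stood far below the others, and the log2 fold change was 0.14 (SE 0.158). Without that library it was 0.017, and with library totals 0.27. The miR-30a-3p libraries of HT+EA were above those of HT, at 438, 426 and 496 against 416, 422 and 405 CPM, but the fold change was -0.02 with TMM and 0.13 with library totals, so it has no set direction. With miR-30b-3p, at 2 to 4 counts against 0 to 1, these were 2 members without overlap, where 9.36% of miRNAs had none. The difference in the effect of HT+EA between nuclei called 0 of 8 members at an adjusted p under 0.05, as it did 0.0% of 1051 miRNAs. At an unadjusted p under 0.05 edgeR passed 1 member, the barely counted miR-30b-3p, and DESeq2 passed 0. It was 0.10 for miR-30c-5p (interval -0.26 to 0.46) and 0.23 for miR-30a-3p (interval -0.16 to 0.63). Leaving out 1 library moved these by over 1.5 times, to between 0.0496 (without CEA HT+EA replicate 2) and 0.24 (without PVN HT replicate 1) for miR-30c-5p and between 0.11 (without CEA HT replicate 1) and 0.39 (without CEA HT replicate 2) for miR-30a-3p, and with library totals they were 0.0044 and 0.10.

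Needling without current called 0 of 8 members against HT in either nucleus by edgeR and by DESeq2 at an unadjusted p under 0.05, where 8.3% of 1000 miRNAs passed in the PVN and 4.7% of 999 in the CEA. Log2 fold changes of the 7 arms spanned -0.23 to 0.15 (PVN) and -0.16 to 0.13 (CEA). The lowest, miR-30b-5p in the PVN, was 0.048 without PVN HT replicate 3 and -0.44 without PVN HT replicate 1, where it passed (edgeR adjusted p = 0.0475). Real against sham needling, the comparison that isolates the current, also called 0 of 8 by both tools, where 7.14% of 994 miRNAs passed in the PVN and 2.24% of 1026 in the CEA. The 7 arms lay between -0.06 and 0.13 in the PVN and between -0.16 and 0.08 in the CEA.

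**Figure D4:**
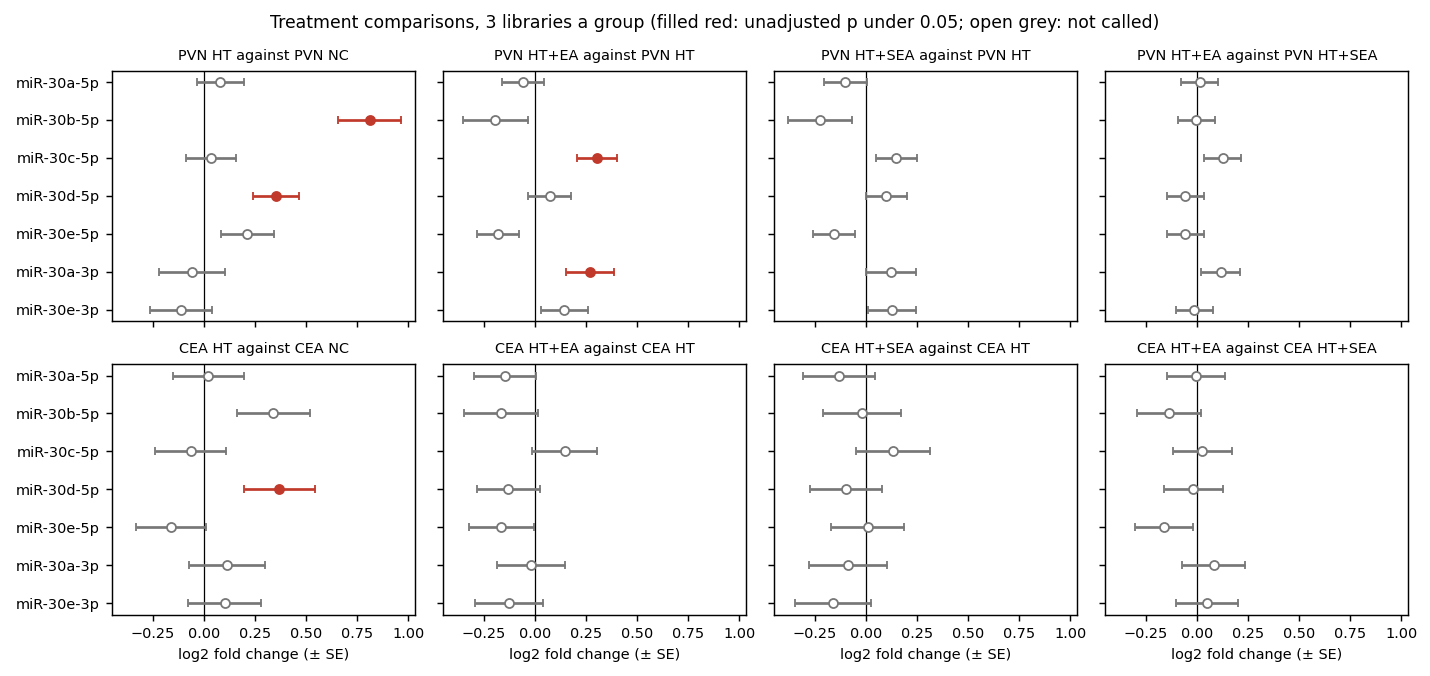
Log2 fold change (x axis) with its SE of the 7 well-counted arms in 4 treatment comparisons in the PVN (top) and CEA (bottom), 3 libraries per group. Filled red points passed an unadjusted p of 0.05: miR-30b-5p and miR-30d-5p for HT in the PVN, miR-30c-5p and miR-30a-3p for HT+EA in the PVN, and miR-30d-5p for HT in the CEA.

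Across libraries the arms did not all vary together. Within the 12 PVN and the 12 CEA libraries, Pearson's r of log2(CPM + 0.5) was 0.745 and 0.804 between miR-30a-3p and miR-30e-3p, arms of hairpins on different chromosomes, and 0.762 and 0.533 between miR-30b-5p and miR-30d-5p. Between the arms of 1 hairpin it was 0.105 and 0.0552 for miR-30a-5p with miR-30a-3p, and -0.384 and -0.298 for miR-30e-5p with miR-30e-3p, but 0.796 and 0.825 for miR-30d-5p with miR-30d-3p. These points share library, depth and treatment, and the values are descriptions.

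The 3 miRNAs outside the list most like each 5p arm over the 24 libraries, among 357 with a mean of at least 10 CPM, were found, and the first of them is given with r within the PVN and within the CEA, since the pooled r mostly reflects the nuclei. miR-30a-5p was most like miR-16-5p (r = 0.955, then 0.846 and 0.578), and miR-30b-5p most like miR-106b-5p (r = 0.881, then 0.812 and 0.771). miR-30c-5p was most like miR-181a-1-3p (r = 0.925, then 0.716 and 0.881), and miR-30e-5p most like miR-124-5p (r = 0.948, then 0.724 and 0.922). miR-30d-5p was most like the 3p arm of its own hairpin, miR-30d-3p (r = 0.851, then 0.796 and 0.825). The next most like, by r over 24 libraries, were miR-3586-3p and miR-151-5p for miR-30a-5p (0.933 each), miR-376c-3p and miR-3586-3p for miR-30b-5p (0.865 each), and miR-3570 and miR-27b-3p for miR-30c-5p (0.924 and 0.91). For miR-30d-5p they were miR-222-3p and let-7b-5p (0.782 and 0.778), and for miR-30e-5p miR-3065-5p and miR-338-3p (0.908 each). The r with miR-30d-5p within the PVN and within the CEA was 0.677 and -0.0461 for miR-222-3p, and 0.538 and 0.342 for let-7b-5p. Some of these names cannot be told apart in the counts: miR-3065-5p and miR-338-3p had equal counts in 24 of 24 libraries, miR-151-5p and miR-3586-3p in 23, and miR-181a-1-3p and miR-3570 in 14 with a largest difference of 4 counts, so each pair stands for 1 pattern.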

How the data were processed

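The values used are unnormalised counts of reads for each miRNA, deposited by the authors. They came from NEBNext small RNA libraries, cleaned of adapter, ambiguous and low-quality reads before mapping. The study's methods name a rat genome, the submitters' processing notes name a human build and the series' design text says mouse, so the genome mapped to is unsettled, although the organism is labelled rat and the known miRNAs have rat names. HISAT2 and featureCounts are named for the sequencing as a whole, and the counting of miRNAs is not given in the sources used here. Another 24 value columns, the counts scaled to library size, were not used. Titles gave each library's nucleus and treatment. Each comparison was fitted over all miRNAs with at least 1 count in its libraries with edgeR 4.0.16 (quasi-likelihood test, TMM, Benjamini-Hochberg adjustment, R 4.3.3, limma 3.58.1). The SE is the log2 fold change over the square root of F. Treatments were called at an unadjusted p under 0.05, as the study did, and nuclei and interactions at an adjusted p under 0.05. The fits were tested on simulated counts in which all miRNAs shared the same spread and changes were larger than those printed here. That test does not cover changes this small or miRNAs with a wider spread. Sequences are from RefSeq (GRCr8).

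All 8 members were named, beside the other miR-30 arms, miR-384-5p for its seed and, for each 5p arm, the 3 known miRNAs most like it. Members and lists were chosen with earlier results of these data known. Alternatives were DESeq2 1.42.0, library totals, DESeq2's size factors, other filters, a robust spread, other thresholds, all 4 groups of a nucleus, a replicate block, each treatment alone and leaving out each library. Leaving miR-7 out of the totals was added after seeing the data. The main fits had no block, so the p-values above are unpaired unless a block is named. Same-numbered libraries were read as deviating together where the deviations from the group mean correlated above 0.1 in all 3 pairs. This held for CEA HT with NC (r from 0.242 to 0.523) and PVN HT+EA with HT (0.143 to 0.33). Between the nuclei it also held within NC (0.149 to 0.291), HT+EA (0.185 to 0.236) and HT+SEA (0.16 to 0.639) but not HT (-0.106 to 0.0599), and blocking there left the same number of members called, 7. The pairing comes from the data, since the labels do not say what a number shares. Summaries and figures were made with Python 3.11.15, pandas 2.3.3, numpy 2.4.6 and matplotlib 3.10.9.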

Additional observations from a re-analysis of the deposited data

How the results depend on the processing

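The 7 arms lower in the PVN kept direction and call in all alternatives but the HT libraries alone, where 5 passed, and their log2 fold changes ran from -0.91 to -0.35. Counts of members called moved more in the treatment comparisons. At an adjusted p under 0.05 the PVN HT against NC count went from 2 to 1, PVN HT+EA against HT from 2 to 0 and CEA HT against NC from 1 to 0. CEA HT against NC gave 0 with library totals and 2 with DESeq2's size factors, with all 4 groups and with the replicate block, and PVN HT+EA against HT gave 1 with all 4 groups and 3 with DESeq2, with at least 10 counts and with filterByExpr. PVN HT+SEA against HT gave 1 with filterByExpr in place of 0. Leaving out 1 library gave 1 to 2 members for PVN HT against NC, 1 to 3 for PVN HT+EA against HT, 0 to 1 for PVN HT+SEA against HT, 0 to 1 for PVN HT+EA against HT+SEA, 0 to 2 for CEA HT against NC and 0 to 1 for CEA HT+EA against HT+SEA. The replicate block changed no other count of members called. Of the 77 fold changes of the 7 arms, 33 changed sign in some alternative, the largest of them 0.23 in size. Of those printed one by one or as the end of a range, miR-30b-5p turned without PVN HT replicate 3 from -0.19 to 0.073 in PVN HT+EA against HT and from -0.23 to 0.048 in PVN HT+SEA against HT. In PVN HT against NC, miR-30a-5p turned from 0.08 to -0.064 and miR-30c-5p from 0.04 to -0.049 without 1 library, and in PVN HT+EA against HT+SEA miR-30d-5p turned from -0.06 to 0.0063. miR-30a-3p in CEA HT+EA against HT turned from -0.02 to 0.13 with library totals and ran from -0.091 to 0.081 without 1 library, and the nucleus difference in the effect of HT on miR-30d-5p turned from -0.09 to 0.091 with library totals and ran from -0.17 to 0.0495 without 1 library. The cause was not tested. miR-30b-3p, at 0 to 5 counts, is limited by depth.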
